A study of Homo sapiens with 6 samples.

Results

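The genes described here encode the 2 large families of proteins that coat nascent transcripts and set splice site choice, the serine/arginine-rich splicing factors (gene symbols SRSF plus a number) and the heterogeneous nuclear ribonucleoproteins (gene symbols beginning HNRNP). Members were found by symbol alone in the gene table deposited by the authors, with 1 pseudogene name, HNRNPA1P48, dropped. The rule gave 37 genes of 27942 in the table, 12 SRSF and 25 HNRNP. The rule itself used no measured value, but it was chosen with earlier results of these data known. Of the 37, 32 (11 SRSF and 21 HNRNP) passed the filter on low counts and were tested. HNRNPCL1, HNRNPCL2, HNRNPCL3 and HNRNPCL4, copies related to HNRNPC, had 0 counts in all 6 libraries. SRSF12 had 6, 4 and 2 raw counts in untreated cells and 0, 1 and 1 after treatment, too few to be tested.

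SR proteins carry RNA recognition motifs and a tail rich in arginine and serine, bind exonic enhancers and help the U1 and U2 particles settle on nearby splice sites. hnRNP proteins bind silencers, polypyrimidine tracts or G runs and often oppose them, and many also act in mRNA export, stability and translation. Both families are known to control their own mRNAs through alternative exons or introns that send the transcript to nonsense-mediated decay.

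The cells were HCT116, an established human colorectal carcinoma line with wild-type p53. NT denotes 3 libraries of untreated cells and OXA denotes 3 libraries of cells exposed to 0.5 µM oxaliplatin, a platinum drug that crosslinks DNA, for 24 h. PolyA RNA was sequenced, the 6 libraries held 32979521 to 40967880 counts, and 13727 genes were tested. The sources do not say whether replicates came from separate cultures, so p-values measure only the spread between these libraries.

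The treatment was visible in p53 targets. The mean normalized count (counts scaled to a common library size) of CDKN1A, the p21 cell cycle inhibitor, was 5127 in NT and 38987 in OXA, and that of MDM2, the ubiquitin ligase of p53, was 6269 and 29221 (edgeR adjusted p = 0.000445 for each). The epithelial markers EPCAM, KRT8, KRT18, CDH1 and CDX2 were present, CDH17 was near 0 in both groups, and PTPRC, CD3E, CD14 and ALB, markers of blood cells and liver, were at or near 0.

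Without pairing, SRSF8 alone passed the test, as higher in OXA, and 0 of the 32 tested members were lower. Over all genes tested, 2.78% were higher and 2.29% lower in that fit. The labels do not state a pairing. With the libraries paired by number, 14 members were lower and SRSF8 was higher, against 10.9% and 12.1% of all genes. Of the 32 tested, 25 had an estimate below 0 and 7 above 0. The median log2 fold change (OXA over NT) was -0.17 over the members, -0.21 over the SRSF genes and -0.13 over the HNRNP genes, against 0.02 over all genes tested. In bulk RNA, fewer cells with a transcript and less transcript per cell cannot be told apart.

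In the edgeR fit without a replicate block, SRSF8 was the 1 member called higher at an adjusted p under 0.05, and 0 members were called lower. Over all genes tested, 2.78% were called higher and 2.29% lower in this fit. At an unadjusted p under 0.05, 11 members were lower and 1 was higher, against 1517 and 1463 of all genes. No member passed the study's additional requirement of a fold change over 1.5. Libraries with the same number in NT and OXA deviated from their group means together, so the number was also fitted as a block. In the fit with the replicate block, 14 members were called lower and 1 was called higher, against 10.9% of all genes called lower and 12.1% called higher. These shares are not matched for level. The median normalized count was 11006 over the members and 895 over all genes, and the median blocked SE was 0.0537 and 0.0902. A change of a given size is thus more easily called in the members. The 14 were SRSF1, SRSF2, SRSF3, SRSF6, SRSF7 and SRSF10, and HNRNPA0, HNRNPA1, HNRNPAB, HNRNPD, HNRNPDL, HNRNPF, HNRNPH2 and HNRNPR. They made up 43.8% of the members tested. Each was lower in all 3 pairs of same-numbered libraries, but the fit that selected them uses these pairs, so this adds no separate evidence. Of all members tested, 19 (59.4%) were lower in all 3 pairs, against 27.6% of all genes. As a further description, 13 members had all OXA libraries below all NT libraries and 2 had all above, where 14.4% and 14.5% of all genes did so. Leaving out numbered pair 1, 2 or 3 in the blocked fit gave 19, 5 and 7 members lower. Over all genes, 20.2%, 4.89% and 8.66% were called lower. Members called higher were 3, 1 and 1, where 5739 of 13845, 1629 of 13764 and 3079 of 13781 genes were called in either direction. The number of members on the list thus rested on pairs 2 and 3, and it moved with the number of all genes called.

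**Figure D1:**
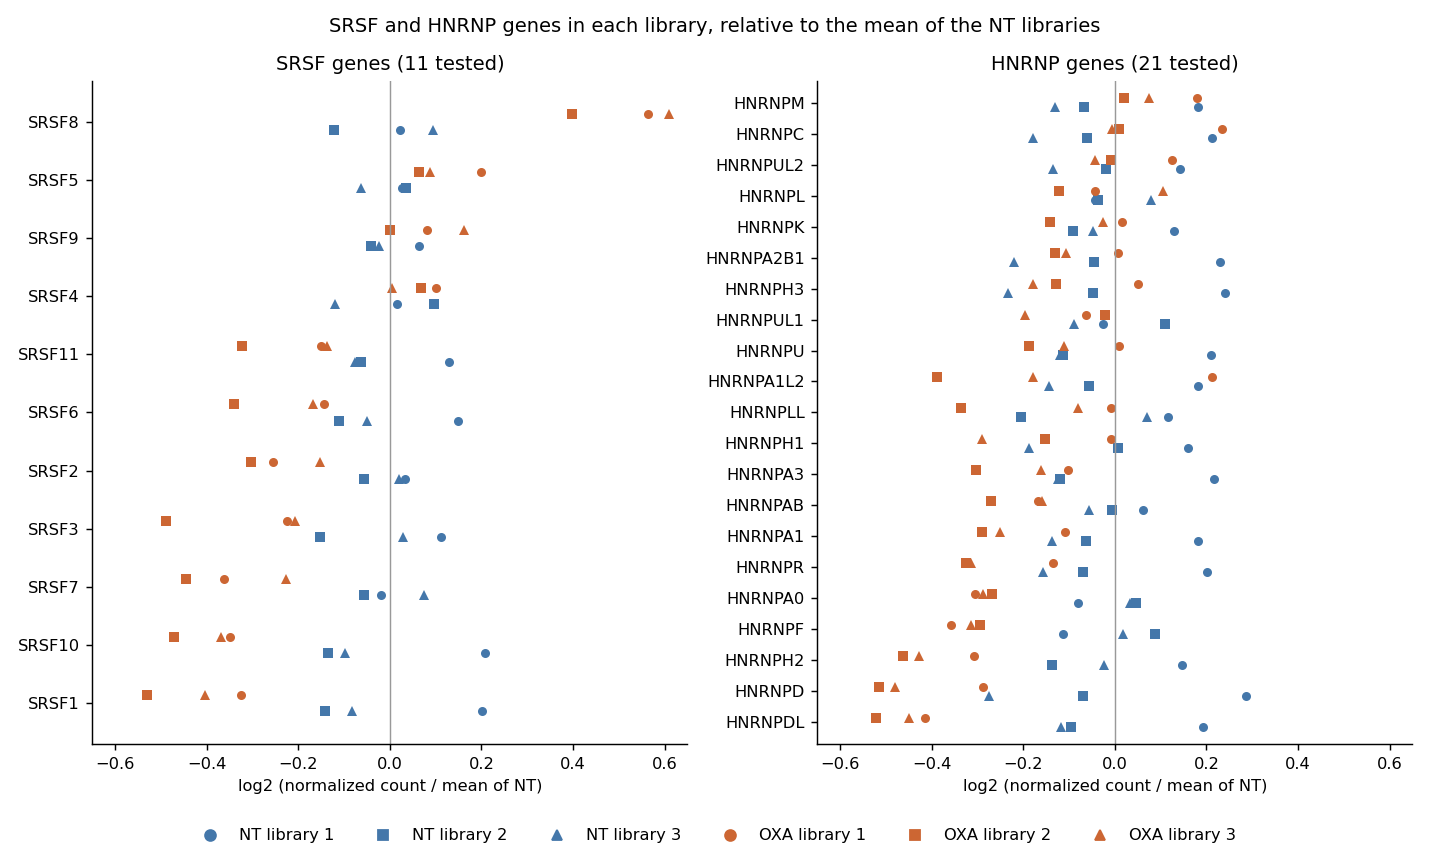
Each row is 1 tested SRSF (left) or HNRNP (right) gene, ordered by log2 fold change, and each point is 1 library, as log2 of its normalized count over the mean of the NT libraries (blue NT, orange OXA, the symbol shape gives the library number). SRSF8 lies to the right in all 3 OXA libraries, 7 SRSF genes have all OXA points left of all NT points, and NT library 1 is the right-most NT point in 24 of the 32 genes.

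NT library 1 stood high for these genes. It had the highest normalized count of its group in 24 of 32 members (75.0%), where it did so in 40.6% of all genes, and its median deviation from the group mean was 0.15 on the log2 scale over the members. The members took 1.86% of all counts in NT library 1, 1.61% and 1.55% in the other NT libraries, and 1.54%, 1.43% and 1.46% in OXA libraries 1 to 3. Each NT share was thus above each OXA share, by a narrow margin between NT library 3 and OXA library 1. Without NT library 1, the unblocked fit called 3 members lower (HNRNPA0, HNRNPDL and HNRNPF) and 1 higher (SRSF8), against 4.11% and 4.49% of all genes, and the median over the members was -0.09. In that fit the estimates of 4 members lower with the block shrank by more than 1.5 times, HNRNPD to -0.26, HNRNPA1 to -0.11, HNRNPR to -0.14 and SRSF6 to -0.13.

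SRSF8, at chr11:95066919-95071225 (GRCh38, plus strand), arose as a copy of SRSF2. The representative SRSF8 transcript has 1 exon, and 1 of its 2 annotated transcripts is listed as a target of nonsense-mediated decay. SRSF2 is a spliced gene at chr17:76734115-76737333 (minus strand) whose protein, SC35, marks nuclear speckles. The start of both coding sequences is shown because the 2 genes were called in opposite directions with the replicate block and their reads have to be told apart. Capitals mark the 12 bases that differ within the first 120 coding bases (GENCODE 44).
SRSF2: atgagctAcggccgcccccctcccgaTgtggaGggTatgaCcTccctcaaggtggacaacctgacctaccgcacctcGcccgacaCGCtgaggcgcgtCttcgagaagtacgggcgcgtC
SRSF8: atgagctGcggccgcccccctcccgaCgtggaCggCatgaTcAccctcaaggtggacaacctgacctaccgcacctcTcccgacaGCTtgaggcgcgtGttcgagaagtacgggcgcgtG
Over 657 aligned coding bases the pair was identical at 84.8%, and the longest identical run was 34 bases. Of all 100-base windows of the SRSF8 transcript, 0.2% occurred in a transcript of another gene, and for SRSF2 0% did.

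SRSF8 had normalized counts of 1762, 1595 and 1852 in NT libraries 1 to 3 and of 2566, 2289 and 2649 in OXA libraries 1 to 3. The groups did not overlap, and the difference was nearly the same in each pair, with log2 ratios of 0.54, 0.52 and 0.52. The log2 fold change was 0.53 ± 0.10 (SE), or 1.44-fold (edgeR adjusted p = 0.0300, and 0.00380 with the replicate block). Leaving out any single library except NT library 1 ended the unblocked call, with estimates of 0.44 to 0.59 and adjusted p from 0.0200 to 0.152 over the 6 fits. With the authors' gene-specific factors in edgeR the adjusted p was 0.0568.

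SRSF2 itself had normalized counts of 10745, 10099 and 10646 in NT and 8786, 8501 and 9442 in OXA. All OXA libraries lay below all NT libraries. The log2 fold change was -0.24 ± 0.083 (SE), with an edgeR adjusted p of 0.149 without and 0.0236 with the replicate block. Part of the SRSF2 transcript (30.1% of its bases) lies opposite exons of MFSD11, whose mean normalized count was 538 in NT and 678 in OXA. The library kit marks strand, but the strand setting of the counting is not given in the sources used here.

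SRSF1 (chr17:58000919-58007346, minus strand) encodes SF2/ASF, the founding SR protein and a known oncogene product that favours proximal 5' splice sites. Its normalized counts were 24042, 18971 and 19744 in NT and 16690, 14488 and 15803 in OXA. Every OXA library was below every NT library, and NT library 1 was well above the other NT libraries. The log2 fold change was -0.42 ± 0.12 (SE), the lowest of the SRSF genes, with an edgeR adjusted p of 0.0839 without and 0.00822 with the replicate block. An annotated read-through locus, AC015813.2, shares 31.6% of the SRSF1 transcript and had mean counts of 255 in NT and 223 in OXA, so the reads of SRSF1 could be split.

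SRSF10 encodes SRp38, which turns into a general splicing repressor when dephosphorylated. Its normalized counts were 8174, 6443 and 6616 in NT and 5558, 5106 and 5477 in OXA, and the groups did not overlap. The log2 fold change was -0.40 ± 0.11 (SE), with an edgeR adjusted p of 0.0871 without and 0.0155 with the replicate block.

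SRSF7 and SRSF3 encode 9G8 and SRp20, the pair of SR proteins best known as adaptors of mRNA export. SRSF7 had normalized counts of 6685, 6522 and 7134 in NT and 5272, 4976 and 5791 in OXA. SRSF3 had 19714, 16405 and 18618 in NT and 15620, 13004 and 15812 in OXA. In both genes OXA library 2 was the lowest of all and the groups stayed apart. The log2 fold changes were -0.34 ± 0.091 (SE) for SRSF7 and -0.30 ± 0.11 (SE) for SRSF3, and the edgeR adjusted p with the replicate block was 0.00848 and 0.0120, against 0.0762 and 0.176 without it.

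SRSF6 encodes SRp55, an enhancer-binding SR protein. It had 16807, 14025 and 14630 normalized counts in NT and 13714, 11967 and 13489 in OXA. The groups were apart, though OXA library 1 came close to NT library 2. Its log2 fold change was -0.21 ± 0.10 (SE), with an edgeR adjusted p of 0.279 without and 0.0399 with the replicate block.

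The other SRSF genes did not pass either test. SRSF11, whose protein p54 contacts U2AF, had 7141, 6248 and 6187 in NT and 5879, 5219 and 5929 in OXA, with no overlap. Its estimate was -0.20 on the log2 scale, at an edgeR adjusted p of 0.283, and 0.0656 with the replicate block. SRSF5, which encodes SRp40, had 3688, 3707 and 3466 in NT and 4153, 3784 and 3844 in OXA. Its OXA libraries lay above its NT libraries by a small margin, and the estimate was 0.12 on the log2 scale (edgeR adjusted p = 0.467, and 0.166 with the replicate block). SRSF4 and SRSF9 had log2 fold changes of 0.06 and 0.08, and their groups overlapped. Of the SRSF9 transcript, 42.6% lies opposite exons of GATC, whose log2 fold change was 0.29.

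**Figure D2:**
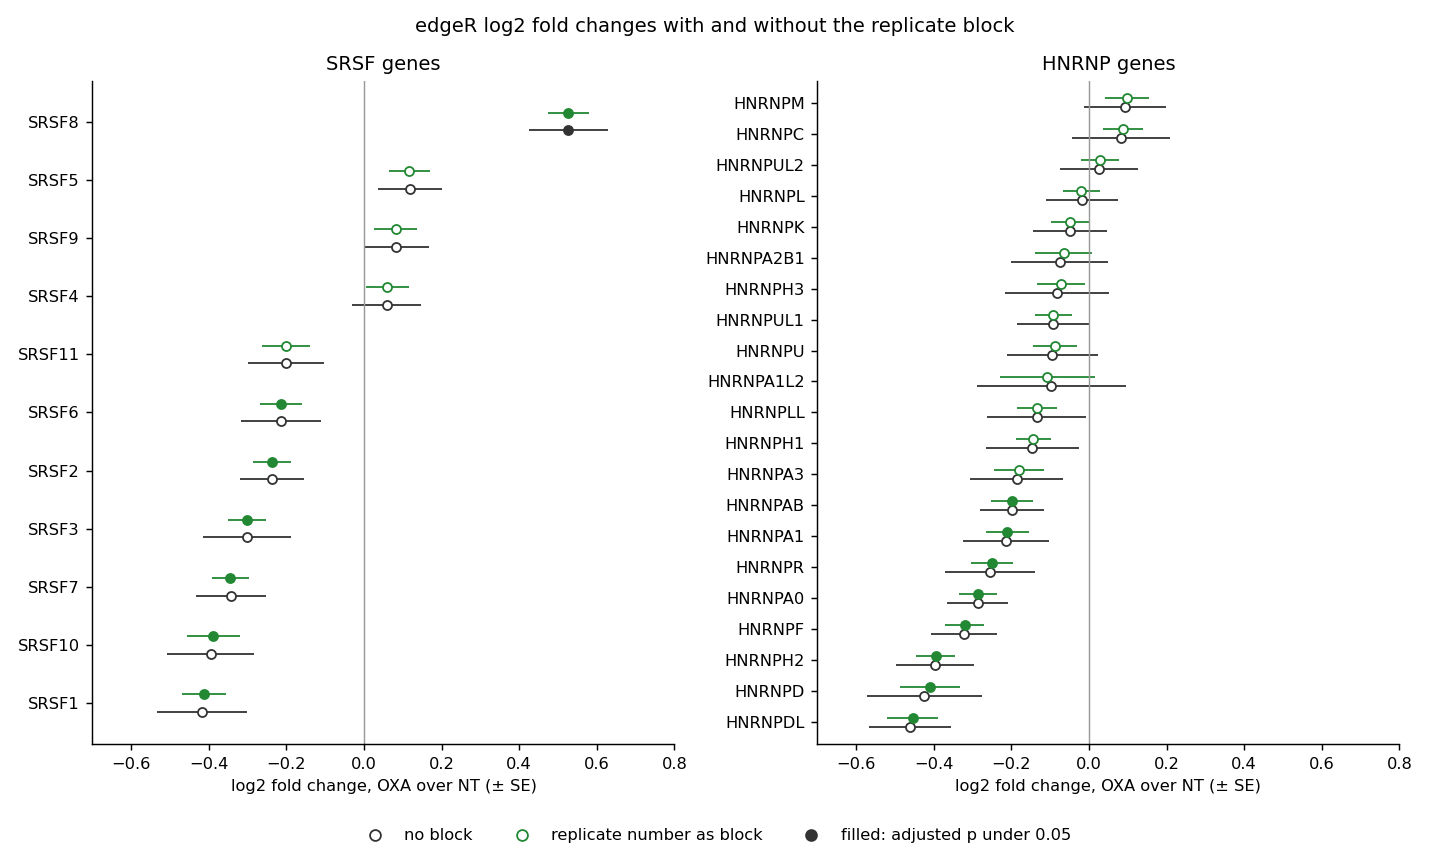
Each row is 1 tested gene, with the edgeR log2 fold change (OXA over NT) and its SE without a block (black) and with the replicate block (green), and filled points have an adjusted p under 0.05. The estimates of both fits nearly coincide and the blocked bars are shorter, with a median SE of 0.054 against 0.11 over the 32 members.

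Among the HNRNP genes, the lowest estimates belonged to a pair of related genes. HNRNPD (chr4:82352498-82374503, minus strand) encodes AUF1, which binds AU-rich elements and speeds mRNA decay, and HNRNPDL, which encodes its closest relative, lies nearby on the same strand at chr4:82422565-82430462. The aligned coding sequences were 68.7% identical, with a longest shared run of 17 bases. HNRNPDL had normalized counts of 9574, 7830 and 7721 in NT and 6283, 5833 and 6131 in OXA. All OXA libraries were well below the NT libraries, and the log2 fold change of -0.46 ± 0.11 (SE) was the lowest of all members (edgeR adjusted p = 0.0516, and 0.00925 with the replicate block). HNRNPD had 24252, 18946 and 16435 in NT and 16284, 13905 and 14257 in OXA. Here NT library 3 and OXA library 1 nearly met, and the NT libraries spread widely. Its log2 fold change was -0.42 ± 0.15 (SE), with an edgeR adjusted p of 0.151 without and 0.0188 with the replicate block.

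HNRNPF, HNRNPH1, HNRNPH2 and HNRNPH3 encode the F/H proteins, which bind runs of G in introns and near alternative exons. HNRNPH2 (chrX:101408222-101414133, plus strand) had normalized counts of 6487, 5333 and 5768 in NT and 4739, 4251 and 4357 in OXA. HNRNPF had 17461, 20059 and 19126 in NT and 14739, 15383 and 15179 in OXA. Neither gene had overlapping groups, and in HNRNPF the lowest NT library was number 1, unlike in most members. The log2 fold changes were -0.40 ± 0.10 (SE) for HNRNPH2 and -0.32 ± 0.086 (SE) for HNRNPF, and the edgeR adjusted p with the replicate block was 0.00711 and 0.0114, against 0.0665 and 0.0775 without it. HNRNPH1, whose coding sequence matched that of HNRNPH2 at 87.6% of bases, had 22147, 19903 and 17390 in NT and 19698, 17826 and 16203 in OXA. Its groups overlapped, and the estimate was -0.15 on the log2 scale (edgeR adjusted p = 0.539, and 0.0737 with the replicate block). HNRNPH3 was at -0.08. Whether the members of this group differ from each other was not tested.

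HNRNPA0, an intronless gene whose protein stabilizes AU-rich mRNAs under stress signalling, had normalized counts of 8868, 9684 and 9591 in NT and 7591, 7793 and 7679 in OXA. The 3 OXA libraries were within a narrow band below all NT libraries. The log2 fold change was -0.29 ± 0.079 (SE), with an edgeR adjusted p of 0.0839 without and 0.0141 with the replicate block. HNRNPAB, which encodes an A/B type protein that binds RNA and single-stranded DNA, had 11580, 11042 and 10659 in NT and 9870, 9197 and 9935 in OXA. These groups were apart too, with a log2 fold change of -0.20 ± 0.082 (SE) and an edgeR adjusted p of 0.212 without and 0.0470 with the replicate block. HNRNPR, a relative of SYNCRIP that acts in mRNA transport, had 16918, 14011 and 13191 in NT and 13393, 11729 and 11834 in OXA. OXA library 1 was above NT library 3, so the groups overlapped, while each pair was lower in OXA. Its log2 fold change was -0.26 ± 0.12 (SE), with an edgeR adjusted p of 0.257 without and 0.0262 with the replicate block.

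HNRNPA1 and HNRNPA2B1 encode the core hnRNP proteins, which bind exonic silencers and shuttle between nucleus and cytoplasm. HNRNPA1 had normalized counts of 101030, 85225 and 81025 in NT and 82649, 72861 and 74822 in OXA. OXA library 1 lay above NT library 3, and each pair was lower in OXA. The log2 fold change was -0.21 ± 0.11 (SE), with an edgeR adjusted p of 0.318 without and 0.0425 with the replicate block. Of the 100-base windows of its transcript, 27.1% also occurred in other genes, largely HNRNPA1 copies. HNRNPA2B1 had 80366, 66341 and 58807 in NT and 68782, 62554 and 63634 in OXA. The OXA libraries lay inside the range of the NT libraries, and the estimate was -0.08 on the log2 scale (edgeR adjusted p = 0.781, and 0.544 with the replicate block). HNRNPC, whose protein coats U tracts and shields cryptic exons, had 56469, 46706 and 43071 in NT and 57314, 49064 and 48515 in OXA. Those groups overlapped as well, with an estimate of 0.08 on the log2 scale (edgeR adjusted p = 0.760, and 0.259 with the replicate block).

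The remaining 10 HNRNP genes tested were within -0.19 (HNRNPA3) and 0.09 (HNRNPM) on the log2 scale, and none passed either test. They were HNRNPU, HNRNPK, HNRNPA3, HNRNPL, HNRNPM, HNRNPUL1, HNRNPUL2, HNRNPH3, HNRNPLL and HNRNPA1L2, and the groups overlapped in each. Of the HNRNPA3 transcript, 59.8% lies opposite exons of NFE2L2, and 45.9% of the HNRNPUL2 transcript is shared with the read-through gene HNRNPUL2-BSCL2. HNRNPA1L2, an intronless copy of HNRNPA1 with 98.4% identity over the aligned coding bases, shared 22.9% of its 100-base windows with HNRNPA1. An annotated noncoding transcript on the same strand covers its whole length, so its mean normalized count of 253 in NT and 237 in OXA is uncertain. The dropped HNRNPA1P48 was counted at 777 in NT and 712 in OXA (-0.13 on the log2 scale, edgeR adjusted p = 0.764). GENCODE 44 names that locus HNRNPA1L3 and lists it as protein coding.

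**Figure D3:**
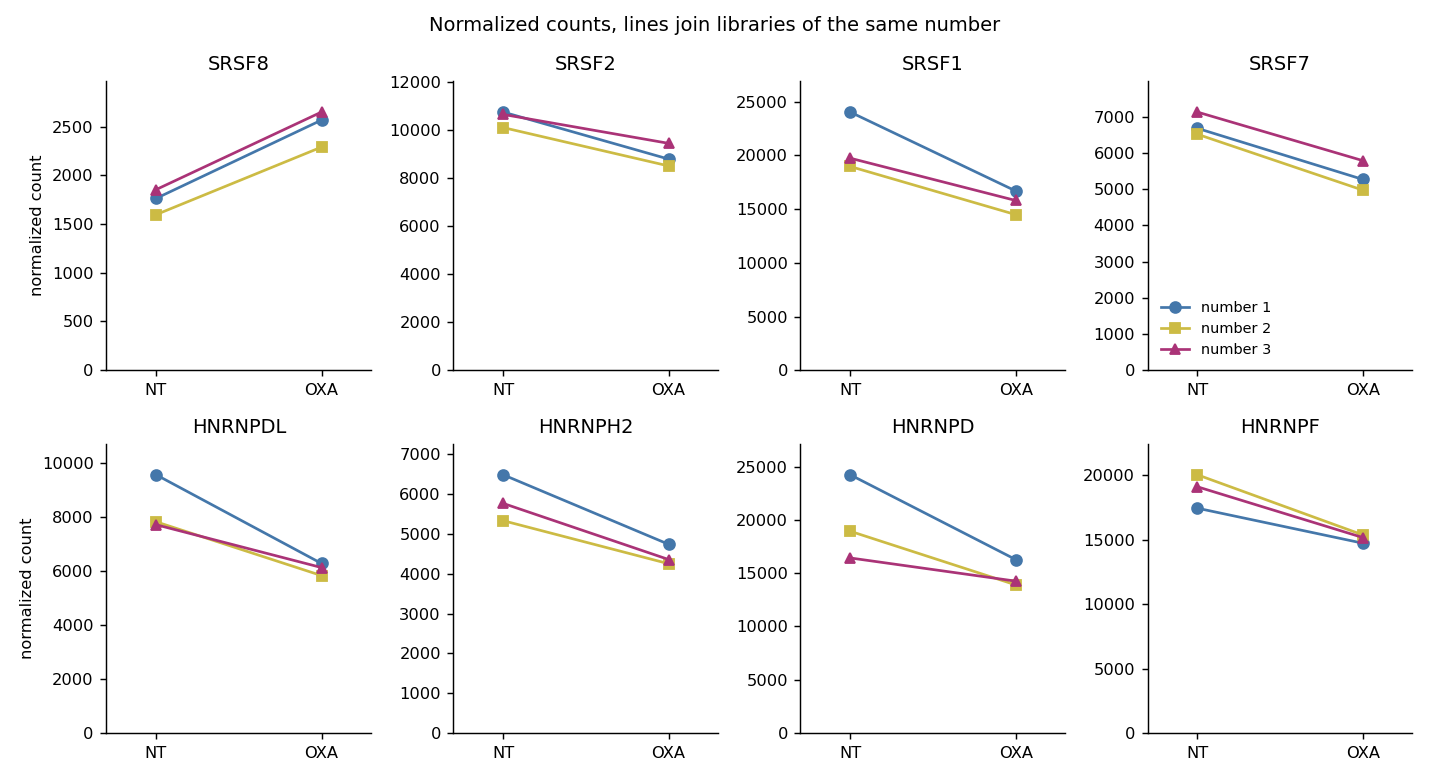
Normalized counts (vertical axes from 0) of 4 SRSF and 4 HNRNP genes in NT and OXA, with a line joining the libraries of the same number. The 3 lines of SRSF8 run upward in parallel, from 1595 to 1852 in NT to between 2289 and 2649 in OXA, and all lines of the other 7 genes run downward.

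Levels can be compared between genes once divided by transcript length. Expressed as normalized counts per kilobase of the representative transcript, the highest NT levels were those of HNRNPA1 (23800 ± 2820, SD, n = 3), HNRNPA2B1 (18880 ± 3020), HNRNPC (15400 ± 2190) and HNRNPK (13800 ± 1140). The ranges over the NT libraries of neighbours in this order overlapped, though the order was the same within each NT library. HNRNPK lay above the next gene, HNRNPL (9444 ± 461), in all NT libraries. The highest SRSF levels per kilobase were SRSF9 (5874 ± 232), SRSF2 (5559 ± 184) and SRSF3 (4316 ± 399), and the NT libraries of these neighbours did not overlap, though the lowest SRSF9 value (5707) was close to the highest SRSF2 value (5691). HNRNPLL, known from T cells, SRSF8 and HNRNPA1L2 were the lowest tested, at 589, 403 and 189 counts per kilobase in NT. SRSF8 thus started far below its relative SRSF2 and was at 581 ± 43.7 per kilobase in OXA, against 4719 ± 256 for SRSF2.

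**Figure D4:**
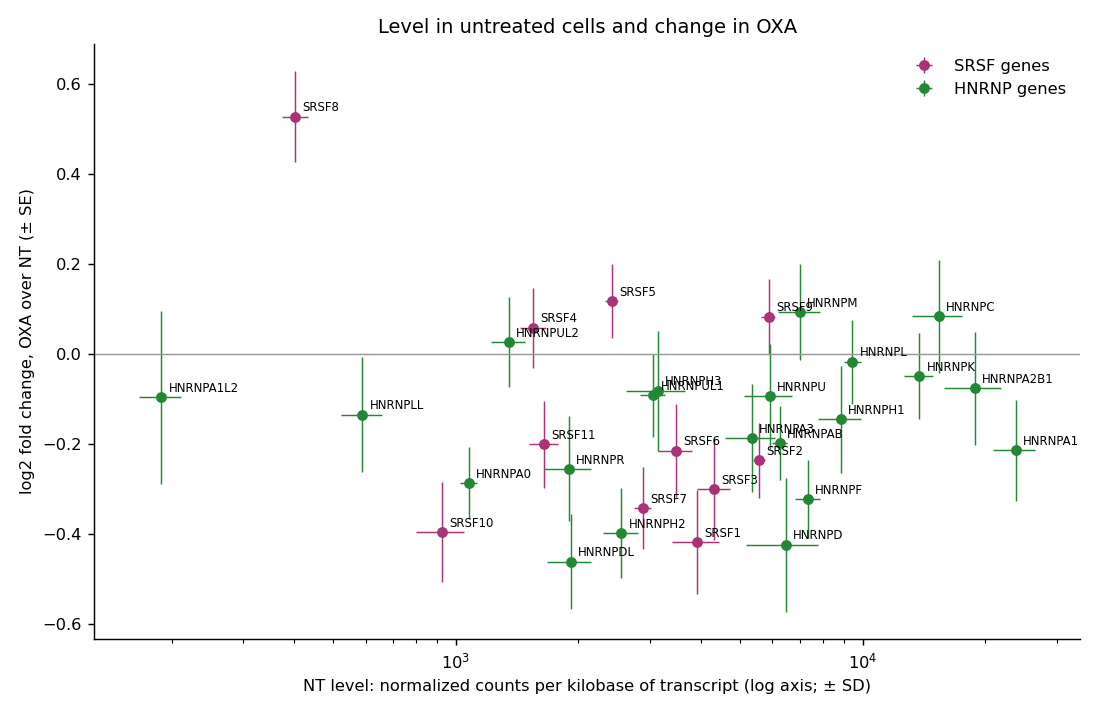
The horizontal axis (log scale) is the NT level in normalized counts per kilobase of transcript with its SD, and the vertical axis is the edgeR log2 fold change (OXA over NT) with its SE, for the 11 SRSF (purple) and 21 HNRNP (green) genes tested. The 4 genes with the highest level per kilobase lie between -0.21 and 0.08, and SRSF8, the highest point at 0.53, is among the 3 with the lowest level.

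Many members have features of their transcripts that the symbol rule did not use. In GENCODE 44, 25 of the 32 tested members (78.1%) had at least 1 transcript annotated as a target of nonsense-mediated decay. All 11 SRSF genes and 14 of the 21 HNRNP genes (66.7%) had one, against 47.5% of 13056 protein-coding genes tested. A transcript with a retained intron was annotated for 75.0% of members and 59.9% of those protein-coding genes. These shares are not matched for level or for the number of annotated transcripts. The members had a median of 12.5 annotated transcripts against 8 for those protein-coding genes. Their median GC content was 42.3%, against 48.8% over tested genes of any type, at similar transcript length (median of 3397 against 3261 bases). When each library's trends on GC content and length were removed, 9 members were called lower without the block and 17 with it, while 3 (SRSF8, SRSF5 and HNRNPC) were called higher with it. The share of all genes called also grew, to 3069 and 6266 of 13675, and the median over the members was -0.12 in both.

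The deposited table also holds the authors' normalized values, which differ from the raw counts by a factor that varies between genes of the same library. The sources used here do not say what this factor corrects. Over genes with 1 annotated transcript its range across the 6 libraries had a median of 0.0051 on the log2 scale, and over genes with more than 1 it had a median of 0.19. Among members the median range was 0.095, with 0.15 for SRSF and 0.073 for HNRNP genes, against 0.17 over all genes. The widest was HNRNPM, whose protein binds GU-rich motifs, at 0.44, and the factor stood at 0.18, -0.11 and -0.26 in its NT libraries and at 0.07, 0.00 and -0.06 in its OXA libraries. The NT libraries alone thus spanned the whole range. No member had a factor that differed between OXA and NT in limma, and 0% of 13658 genes did, both without and with the replicate block. At an unadjusted p under 0.05 it was 2 members and 646 genes without the block, and 3 members and 1005 genes with it. The 2 members were SRSF6, at 0.10, and SRSF1, at 0.05 (limma adjusted p = 0.975 and 0.962).

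**Figure D5:**
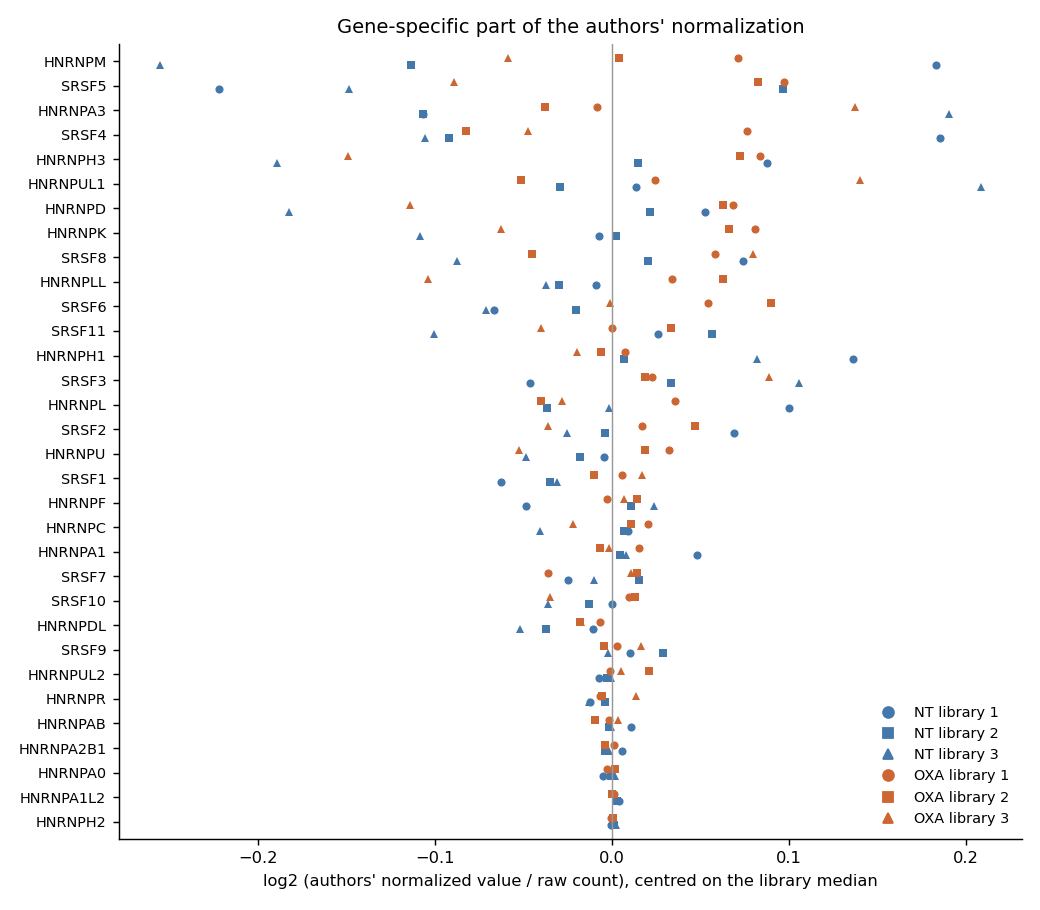
Each row is 1 tested member, ordered by range, and each point is 1 library (blue NT, orange OXA), as log2 of the authors' normalized value over the raw count, centred on the library's median. HNRNPM, SRSF5, HNRNPA3 and SRSF4 spread over 0.44 to 0.29, and HNRNPH2, HNRNPA1L2 and HNRNPA0 stay near 0.

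Promoters are shown for the member called higher, for the SRSF gene with the lowest fold change and for HNRNPH2, the X-linked member that was lower with the replicate block. The windows (RefSeq, GRCh38.p14) run from 250 bases before to 50 after the transcript start. They lie at chr11:95066669-95066968 (plus strand) for SRSF8, where a second, overlapping window is listed slightly upstream, chr17:58007197-58007496 (minus strand) for SRSF1 and chrX:101407972-101408271 (plus strand) for HNRNPH2. Capitals mark matches on either strand to the letters searched for each of 7 factors, which were CCAAT for NF-Y, TGACGT for CREB, CCATNTT for YY1, CCGGAAG for the ETS family, TTCCCGCC for E2F, GCATGCGC for NRF1 and TATAAA for the TATA box.
SRSF8: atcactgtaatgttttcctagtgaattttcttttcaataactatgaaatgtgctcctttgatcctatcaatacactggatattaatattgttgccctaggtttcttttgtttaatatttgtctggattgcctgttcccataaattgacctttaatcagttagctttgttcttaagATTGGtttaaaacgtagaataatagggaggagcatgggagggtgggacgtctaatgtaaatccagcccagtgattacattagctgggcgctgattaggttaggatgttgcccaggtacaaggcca
SRSF1: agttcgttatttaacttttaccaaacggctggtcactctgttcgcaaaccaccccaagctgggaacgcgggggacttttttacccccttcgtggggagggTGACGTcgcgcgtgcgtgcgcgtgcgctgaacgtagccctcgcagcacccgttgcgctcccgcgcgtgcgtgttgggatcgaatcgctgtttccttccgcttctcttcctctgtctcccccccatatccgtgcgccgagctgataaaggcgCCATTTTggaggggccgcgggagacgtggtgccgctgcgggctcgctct
HNRNPH2: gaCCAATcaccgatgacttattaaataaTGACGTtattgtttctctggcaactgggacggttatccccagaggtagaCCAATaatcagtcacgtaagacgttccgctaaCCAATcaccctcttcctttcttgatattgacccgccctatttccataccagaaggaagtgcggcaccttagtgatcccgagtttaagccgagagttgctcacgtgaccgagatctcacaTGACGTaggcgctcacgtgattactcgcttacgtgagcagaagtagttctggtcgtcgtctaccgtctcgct
The SRSF8 window held 1 NF-Y match, in reverse, and the HNRNPH2 window held 3 NF-Y and 2 CREB matches. SRSF1 had 1 CREB and 1 YY1 match. The RefSeq table matched 30 of the 32 members, with 44 promoter windows. The NF-Y letters were in 22 of these 44 windows and in 34.6% of all 35116 windows. The E2F letters were in 7 member windows (15.9%), from 6 genes, and in 3.16% of all, and those of NRF1 in 6.82% and 3.05%. For CREB the shares were 13.6% and 7.98%, for YY1 20.5% and 15.6%, for the TATA box 13.6% and 11.5%, and for the ETS family 11.4% and 10.3%. By gene, the NF-Y letters were found in 7 of the 12 matched members that were lower with the block and in 12 of the other 18, and the E2F letters in 2 of 12 and 4 of 18. These are counts of letters, and windows of 1 gene can overlap. The 35116 windows were not limited to genes tested here, while the member windows were. The shares are thus not matched for expression, and whether they differ was not tested.

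The rest of the splicing machinery was read from lists of core and accessory factors. Over all genes tested, 2.29% were called lower and 2.78% higher without the block, and 10.9% and 12.1% with it. In the unblocked fit, 1 gene of these splicing lists was called, ESRP2, a regulator of epithelial splicing, with a mean normalized count of 1237 in NT and 2069 in OXA and an estimate of 0.74 ± 0.13 (SE) on the log2 scale (edgeR adjusted p = 0.0242). Its relative ESRP1 was at 8381 and 6286, an estimate of -0.42 on the log2 scale (edgeR adjusted p = 0.0937, and 0.00543 with the replicate block). Among the 16 tissue-regulated splicing factors tested, 3 were lower and 2 higher with the block, TIA1 and TIAL1 among the lower and MBNL2 among the higher.

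With the replicate block, 10.9% of all genes were called lower and 12.1% higher. Of 16 hnRNP-type proteins under other symbols, 4 were lower and 1 was higher in that fit, with a list median of -0.13. RBMX, which encodes hnRNP G, was at -0.39 on the log2 scale (edgeR adjusted p with the block 0.00870). Of 16 SR-related proteins, 3 were lower (SREK1, RBM39 and TRA2B, at -0.26, -0.25 and -0.23) and 0 higher with the block, with a list median of -0.11. Both list medians were on the same side as those of the SRSF and HNRNP genes. The medians of the U1, SR kinase, and Sm and LSm lists were also below 0 (-0.09, -0.03 and -0.01). The other lists of factors had medians of 0.03 to 0.09.

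Calls in the core particles went both ways, where 10.9% of all genes were called lower and 12.1% higher with the block. The counts with the block, lower then higher, were 0 and 1 of 8 for U1 (SNRPC), 2 and 2 of 16 for U2 and U2AF, 0 and 2 of 15 for the tri-snRNP (EFTUD2 and PRPF31), and 0 and 1 of 14 for the Sm and LSm core (LSM7). They were 2 and 2 of 18 for the Prp19 complex and catalytic step factors, where the helicase DHX15 was at -0.35 and DHX38 at 0.33. The exon junction complex had 1 and 0 of 9 (EIF4A3), and the SR protein kinases and import receptor had 1 and 1 of 9, DYRK1A at -0.26 and CLK3 at 0.39. Of 10 nonsense-mediated decay factors, 0 were lower and 1 was higher (SMG9, at 0.43). U2AF1, the reader of the 3' splice site AG, was at 611 in NT and 302 in OXA, an estimate of -1.02 ± 0.32 (SE) on the log2 scale (edgeR adjusted p = 0.117, and 0.0215 with the block). The table also lists U2AF1L5, known as a copy of U2AF1, at 5454 in NT and 5272 in OXA, and whether reads were split between them was not tested.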

How the data were processed

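PolyA RNA of 6 HCT116 libraries was sequenced as paired reads. The authors mapped reads to GRCh38 with STAR 2.7.5b and normalized them with DESeq2 (listed as 2.13), and their processing notes also name Trimmomatic 0.32 and RSEM 1.3.3 with no role. They deposited 1 table with raw counts per gene, whole numbers that may be rounded estimates, and a normalized value for each library, a signal that the authors scaled by a factor differing between genes in a way not given in the sources used here. No column holds a fold change or p-value. Libraries were grouped by title and treatment label as NT (0 µM) and OXA (0.5 µM), and the deposited raw counts entered all tests of abundance.

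In R 4.3.3, edgeR 4.0.16 was used with filterByExpr (minimum count 10), TMM scaling, the quasi-likelihood test over 13727 genes and Benjamini-Hochberg adjustment. SEs were derived from the estimate and its F value. Precision at these depths (32979521 to 40967880 counts) is set by the spread between libraries and not by counting error. The same-numbered NT and OXA libraries had deviations correlated at 0.481, 0.467 and 0.257 across all genes tested, and those of different numbers at -0.41 to 0.0784. Deviations from a mean of 3 libraries sum to 0, so these correlations are not independent. The labels name no shared batch, and whether the numbers mark true pairs is not known. Blocked values therefore stand beside the unblocked ones. No 2 libraries agreed within sampling noise. The log2 ratio of the normalized signal to the count, centred per library, was tested in limma 3.58.1.

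Positions, transcripts and coding sequences came from GENCODE 44 and promoter windows from RefSeq GRCh38.p14. Protein sequences were not analysed here. Alternatives were DESeq2 1.42.0, other scalings and filters, the authors' factors, the replicate block, leaving out libraries and, chosen after seeing the data, trends on GC content and length. Scripts were tested on simulated data. Members and lists were chosen with earlier results of these data known. Values in every library are given for members called with or without the block and for the most abundant or most changed of each family, from the lists at most 4 called genes each are named, and SRSF11, SRSF5, HNRNPH1, PRPF31, EIF4A3 and U2AF1L5 were also named for context. 1 gene of the lists is not reported here.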

Additional observations from a re-analysis of the deposited data

How the results depend on the processing

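The number of members called lower was 0 in edgeR without a block (2.29% of all genes lower), and it depended on the setting. It was 14 with the replicate block (10.9% of all genes lower), 4 in DESeq2 (HNRNPDL, HNRNPF, HNRNPH2 and SRSF1; 4.13% of all genes), 3 with library totals only (3.72%), 3 with a filter of 1 CPM in 3 libraries (3.86%, with HNRNPDL, HNRNPH2 and SRSF7 in both), 1 with no filter (HNRNPDL, 1.79%), 9 with GC and length trends removed (11%) and 17 with those trends and the replicate block (22.4%). Leaving out each library in turn without the block gave 0 to 3 (0.136% to 4.11% of all genes), with the 3 arising without NT library 1. The number stayed at 0 with the authors' factors (1.5%) and with DESeq2 size factors in edgeR (2.27%). The number called higher was 0 with the authors' factors (1.8% of all genes higher) and 3 with the trends and the block (23.4%). It was also 3 in the blocked fit without pair 1, where 5739 of 13845 genes were called in either direction. With each library left out it was 0 to 1 (0.474% to 4.49%). It was 1 in the other settings, with 1.71% to 12.1% of all genes higher where that share was computed. The members apart and higher in OXA numbered 1 on the authors' normalized values, where the share over all genes was not computed. On the TMM-scaled counts they numbered 2, where 14.5% of all genes were apart and higher. The causes were not tested. No fold change of a member called in either edgeR fit changed sign in any setting run.

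Among members called with the block, sizes moved by more than 1.5 times without NT library 1 as given above, with the authors' factors for SRSF6 (-0.134), and with the trends removed for SRSF6 (-0.119), HNRNPAB (-0.311), HNRNPA1 (-0.143) and HNRNPR (-0.149). Signs changed for 11 other members. With the trends removed, SRSF9 was at -0.0281 (-0.0256 with the block), HNRNPA2B1 at 0.0239 (0.0277) and HNRNPK at 0.0185 in both. HNRNPUL2 was at -0.0135 with library totals, -0.00309 with no filter and -0.00323 at 1 CPM. With libraries left out, the log2 fold changes ranged from -0.0326 to 0.202 for HNRNPC, -0.219 to 0.0559 for HNRNPH3, -0.002 to 0.193 for HNRNPM, -0.114 to 0.0324 for HNRNPL, -0.0298 to 0.077 for SRSF4, -0.208 to 0.055 for HNRNPA2B1, -0.279 to 0.0292 for HNRNPA1L2, -0.185 to 0.0235 for HNRNPU, -0.125 to 0.0202 for HNRNPK and -0.0698 to 0.103 for HNRNPUL2.

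Over all genes, 696 were called without the block, 3157 with it, 1175 in DESeq2, 451 with the authors' factors, 3069 and 6266 with the trends removed without and with the block, and 85 to 1194 with each library left out.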
